A study of Mus musculus with 12 samples.

Results

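Sertoli cells are the somatic nurse cells of the testis, and 10 genes that mark them were followed in single mouse embryos whose nuclei came from such cells. The genes were Sox9, Wt1, Clu, Amh, Dhh, Cldn11, Fshr, Inhbb, Nr5a1 and Ptgds. They were chosen by name, and all of their probes on the array, 13 of 41174, were taken (10 of the 18327 genes that could be named). The question was whether transcripts typical of the donor cell could be seen in the embryos made from it. RNA was measured on 12 single-colour Agilent arrays, 1 morula on each, the stage of a compact ball of cells before the blastocyst. The reference was 4 untreated embryos made by in vitro fertilisation (IVF), of which embryos 1 and 3 were male and 2 and 4 female. The clones were 8 male embryos, each made with the nucleus of a Sertoli cell. Of these, 4 were injected with a control siRNA (siCont clones) and 4 with an siRNA against Xist (siXist clones), 6 to 7 h after activation, at the 1-cell stage. All embryos carried the (C57BL/6 x DBA/2) F1 background and were cultured for 72 h. Each array holds 1 whole embryo, so fewer cells with a transcript and less transcript per cell cannot be told apart. No Sertoli cell RNA was analysed here, so the level in the donor cell is not known on this scale.

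Sertoli cell fate is set by a chain of transcription factors. WT1 and NR5A1 act in the early gonad, SRY switches on SOX9, and SOX9 then drives the genes of the differentiated cell. The mature cell talks to its neighbours through hormones and growth factors, among them anti-Mullerian hormone, desert hedgehog and inhibins, and is itself controlled by follicle stimulating hormone. It also seals the seminiferous epithelium with tight junctions and secretes carrier and chaperone proteins. In a clone, the oocyte has to silence this programme and start the embryonic one.

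RefSeq (build GRCm38.p6) gave a promoter for 5 of the 10 genes. The 250 bases before the start of transcription are shown for 4 of them, a pair read on every array (Inhbb and Dhh) and a pair at or near background on most arrays (Cldn11 and Fshr). Capitals mark CpG, the dinucleotide that carries DNA methylation.
Inhbb, chr1:119422249-119422498, minus strand: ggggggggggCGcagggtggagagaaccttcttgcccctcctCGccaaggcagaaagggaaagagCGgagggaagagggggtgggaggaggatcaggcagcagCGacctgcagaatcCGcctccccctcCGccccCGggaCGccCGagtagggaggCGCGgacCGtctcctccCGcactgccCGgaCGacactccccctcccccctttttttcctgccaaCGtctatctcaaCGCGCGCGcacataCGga
Dhh, chr15:98898541-98898790, minus strand: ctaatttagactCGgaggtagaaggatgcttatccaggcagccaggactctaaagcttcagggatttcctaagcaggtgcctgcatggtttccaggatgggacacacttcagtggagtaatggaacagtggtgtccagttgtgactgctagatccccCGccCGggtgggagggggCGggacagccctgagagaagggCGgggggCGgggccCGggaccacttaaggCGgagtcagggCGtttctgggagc
Cldn11, chr3:31149670-31149919, plus strand: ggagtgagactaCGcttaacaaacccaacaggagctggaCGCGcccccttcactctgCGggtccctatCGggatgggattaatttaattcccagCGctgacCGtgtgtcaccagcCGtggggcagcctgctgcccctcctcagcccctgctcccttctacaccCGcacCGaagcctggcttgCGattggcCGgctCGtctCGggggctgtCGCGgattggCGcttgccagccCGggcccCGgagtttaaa
Fshr, chr17:89200676-89200925, minus strand: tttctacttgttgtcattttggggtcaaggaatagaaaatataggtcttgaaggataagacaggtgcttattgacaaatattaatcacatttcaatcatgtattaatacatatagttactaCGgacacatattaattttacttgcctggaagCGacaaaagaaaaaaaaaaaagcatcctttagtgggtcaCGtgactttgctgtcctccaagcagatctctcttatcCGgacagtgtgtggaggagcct
These stretches held 21 CpG in Inhbb, 9 in Dhh, 19 in Cldn11 and 4 in Fshr, and the fifth, Ptgds, held 2. The median over 32851 promoters of the same length was 6. The ratio of observed to expected CpG was 0.73 for Inhbb, 0.76 for Cldn11, 0.48 for Fshr, 0.43 for Dhh and 0.09 for Ptgds. Over all named genes with a promoter, 73.3% of those with a ratio of at least 0.6 were above background on all 12 arrays, against 33.3% of those under it. These 5 genes are too few to set against those shares. CpG-rich Inhbb was above background on 12 of 12 arrays and CpG-rich Cldn11 on 5. Under the ratio of 0.6, Dhh and Ptgds were above background on 12 of 12 and Fshr on 5. The median ratio over all promoters was 0.37, so Dhh and Fshr lay above it and Ptgds below. The letters AACAAT (bound by SOX proteins) and AAGGTCA (bound by NR5A proteins) were searched on both strands, and neither contains the other. Neither occurs in any of the 5 windows, while 9.42% and 4.08% of all promoters hold them.

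Levels are the log2 processed signal of a probe minus the 75th percentile of its array, so that 0 is the level of that percentile. A probe counts as detected where the scanner software marked it well above background. Between 50.7% and 61.4% of all probes were detected on an array, and the 75th percentile of the signal lay between 507 and 1133. Every class had its own slide and its own scan, which means that class, slide and scan cannot be told apart. Detection also reached lower on the siXist slide. The lowest signal marked above background was -6.76 to -6.38 on its arrays, -6.31 to -5.68 on the IVF arrays and -6.26 to -5.60 on the siCont arrays. Xist itself, by the brightest of its 4 probes (A_52_P300376), read 4.56 to 5.65 in siCont clones, 1.36 to 2.45 in siXist clones, 5.17 and 5.24 in female and -4.92 and -7.04 in male IVF embryos. Its 3 other probes overlapped between siCont and siXist clones. Of 13 morula markers, 13 were detected in each IVF embryo and 11 to 13 in each clone, but not all at like levels. Sox2 was above background in 4 IVF embryos, 1 siCont clone and 1 siXist clone. Cdx2 averaged 4.72 in IVF embryos, -1.05 in siCont and 2.85 in siXist clones. The median difference of the 13 between all clones and IVF was -0.47, against -0.12 for all probes. No morula marker passed the test given below.

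Most of the 10 Sertoli genes were already read in normal embryos. Between 6 and 7 of the 10 were detected in each IVF embryo, 6 to 7 in each siCont clone and 6 to 9 in each siXist clone. Of all probes, 55.9% to 61.0% were detected on the IVF arrays, 50.7% to 58.9% on the siCont and 57.7% to 61.4% on the siXist arrays. Counts of 6 or 7 lie near these shares and do not set the Sertoli genes apart. A gene counts here if any of its probes was detected, while the shares are of single probes, so the comparison is rough. Clu, Dhh, Inhbb, Nr5a1 and Ptgds were detected on all 12 arrays. Sox9 was detected in 4 of 4 IVF embryos, 4 of 4 siCont clones and 2 of 4 siXist clones. Amh was detected in none, Wt1 in 1 clone, Fshr in 1 IVF embryo and 4 clones, and Cldn11 in 0 IVF embryos, 1 siCont clone and 4 siXist clones. The embryo with most of them was siXist clone 4, with 9. With a less strict mark, a signal positive and significant against background, 8 to 9 of 10 were counted in each IVF embryo and 8 to 10 in each clone.

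**Figure D1:**
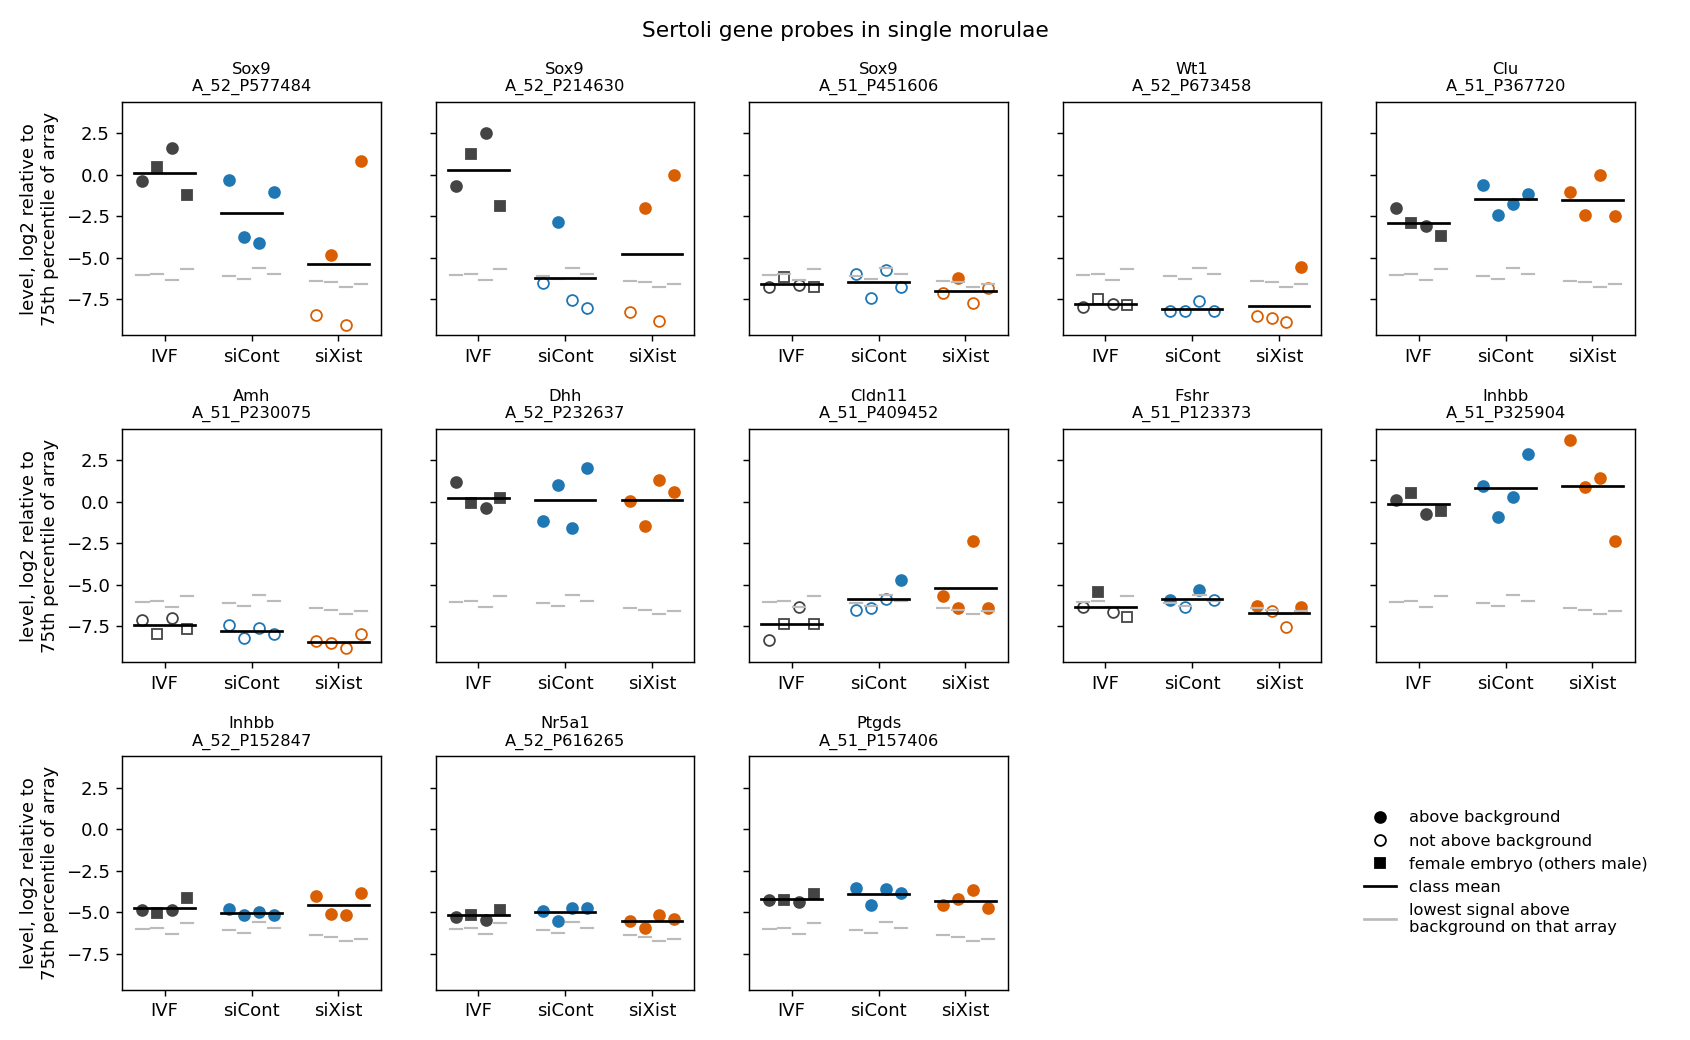
Level of each of the 13 probes in each of the 12 embryos, in log2 relative to the 75th percentile of the array, by class (replicates 1 to 4 from left to right). Filled symbols are above background, black lines are class means, and grey ticks are the lowest signal above background on that array. The tested Sox9 probes at the top left run from -9.03 to 0.81 in the clones, while Nr5a1 and Ptgds lie in a narrow band in all classes.

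Of the 13 probes, 9 probes of 7 genes entered the test, which required detection on 3 or more of the 4 arrays in a class. Outside it lay Amh, Wt1, Fshr (2 arrays at most in a class) and the third Sox9 probe, A_51_P451606 (1 array at most). No Sertoli probe passed an adjusted p of 0.05 in limma, fitted to all 12 arrays and adjusted over 24831 probes. The count was 0 of 9 for all clones against IVF, where 0.745% of all probes passed, 0 of 9 for siCont clones against IVF (0.387%) and 0 of 9 for siXist clones against IVF (0.507%). It was also 0 of 9 for siXist against siCont clones (0.0201%) and for female against male IVF embryos (0.0161%). At shares this low, a count of 0 in 9 does not set these probes apart. At an unadjusted p of 0.05 the counts were 4, 1, 3, 0 and 0 of 9, against 12.8%, 12.9%, 13.4%, 13.1% and 1.54% of all probes. The median difference of the 9 probes between all clones and IVF was -0.05, and that of all probes was -0.12. Against the same IVF embryos, siCont clones gave a median of 0.20 (all probes -0.06) and siXist clones -0.12 (all probes -0.21). The 4 probes with an unadjusted p under 0.05 between clones and IVF were both of Sox9, lower in clones, and those of Clu and Cldn11, higher in clones. Of these, Sox9 A_52_P214630 entered the test only through the IVF embryos and Cldn11 only through the siXist clones. In each case that was the class where the probe read highest, so their p-values are a description only. Comparisons with IVF share its 4 embryos. Values for 1 probe are also given with an exact two-sided permutation test over embryos, which cannot go below 0.00202 for 8 clones against 4 IVF embryos or 0.0286 for 4 against 4. Nothing in the labels says that embryos of a class came from separate matings or donor preparations, so p-values measure the spread between these embryos.

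**Figure D2:**
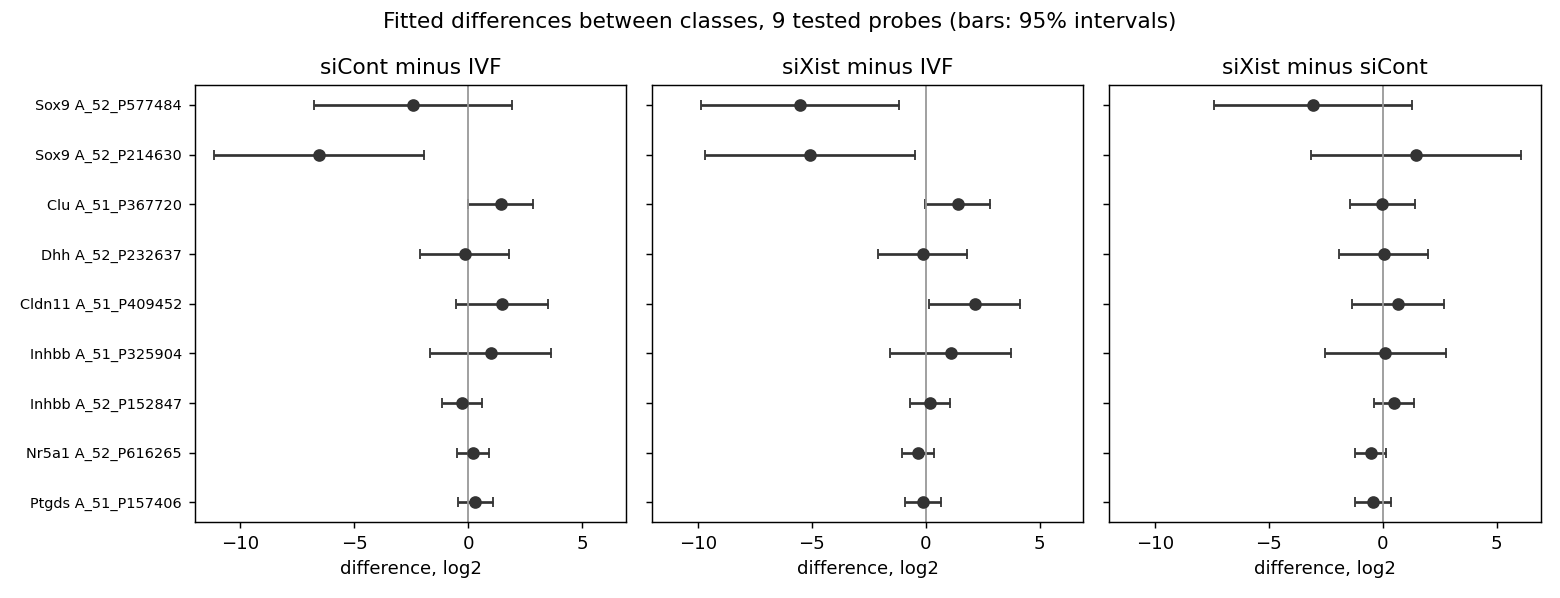
Fitted differences in log2 for the 9 tested probes in siCont clones against IVF, siXist clones against IVF and siXist against siCont clones. Points are limma estimates and bars their 95% intervals, which are widest for Sox9 and narrowest for Nr5a1 and Ptgds.

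For Sox9, the transcription factor that sets Sertoli fate, most clones read below the IVF embryos, but neither tested probe passed the adjusted threshold. The probe A_52_P214630, spotted 10 times on each array, read -0.69, 1.24, 2.54 and -1.88 in IVF embryos 1 to 4. In siCont clones 1 to 4 it read -6.49, -2.87, -7.53 and -8.05, and only clone 2 was above background. In siXist clones 1 to 4 it read -8.28, -2.02, -8.79 and -0.02, and clones 2 and 4 were above background. All 4 siCont clones lay below all 4 IVF embryos, and the siXist clones overlapped them through clone 4. In 5 of the 8 clones the probe was not marked well above background. The difference of all clones from IVF was -5.81 ± 1.79 (SE) in log2, with 3 of 8 clone arrays measured, an exact permutation p of 0.0182 and a limma adjusted p of 0.203. For siCont clones it was -6.54 ± 2.07 (limma adjusted p = 0.241, exact permutation p = 0.0286, the smallest possible). This was the 1 of 9 probes whose siCont and IVF values did not overlap, a pattern shown by 9.78% of all tested probes. The probe entered the test only through the IVF embryos, the class where it read highest, which favours a gap from the clones. Its p-values and lack of overlap are therefore a description only. For siXist clones the difference of this probe was -5.08 ± 2.07 (limma adjusted p = 0.329). In that comparison 0 of 9 Sertoli probes separated the clones from IVF embryos without overlap, against 12.4% of all probes. Where the probe was above background, its spots on 1 array had an SD of 0.03 to 0.12, which covers the reading of the array and not amplification, labelling or hybridisation. The SD between the 4 IVF embryos was 1.97. The difference of all clones was -4.42 with dim values raised to a common floor of -5.60, and -3.00 with normexp background correction and quantile normalisation.

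The second Sox9 probe gave a different account of the siCont clones. A_52_P577484 read -0.35, 0.48, 1.60 and -1.23 in IVF embryos 1 to 4 and -0.32, -3.76, -4.12 and -1.03 in siCont clones 1 to 4, all above background. In siXist clones 1 to 4 it read -8.46, -4.84, -9.03 and 0.81, with clones 1 and 3 not above background. Here siCont clones 1 and 4 lay among the IVF embryos, although the 10-spot probe was not marked well above background in either. By the less strict mark, positive and significant against background, the 10-spot probe was counted in siCont clone 1 and not in siCont clone 4. Both probes put siXist clones 1 and 3 at background and siXist clone 4 in the IVF range. The difference of all clones from IVF was -3.97 ± 1.69 (limma adjusted p = 0.367, exact permutation p = 0.0768), and -2.21 with normexp and quantile normalisation. For siXist clones it was -5.51 ± 1.95 (adjusted p = 0.268) and for siCont clones -2.43 ± 1.95 (adjusted p = 0.635). Between siXist and siCont clones the probes pointed opposite ways, with -3.07 ± 1.95 (adjusted p = 0.499) for this one and 1.46 ± 2.07 (adjusted p = 0.765) for the 10-spot probe. These rest in part on background readings, since the first had 2 of 4 siXist arrays and the second 2 of 4 siXist and 3 of 4 siCont arrays not above background. With the floor they were -1.50 and 1.61, and with normexp and quantile normalisation -0.81 and 0.96. The third Sox9 probe was above background only in siXist clone 2, at -6.22. What sets the probes apart was not tested.

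**Figure D3:**
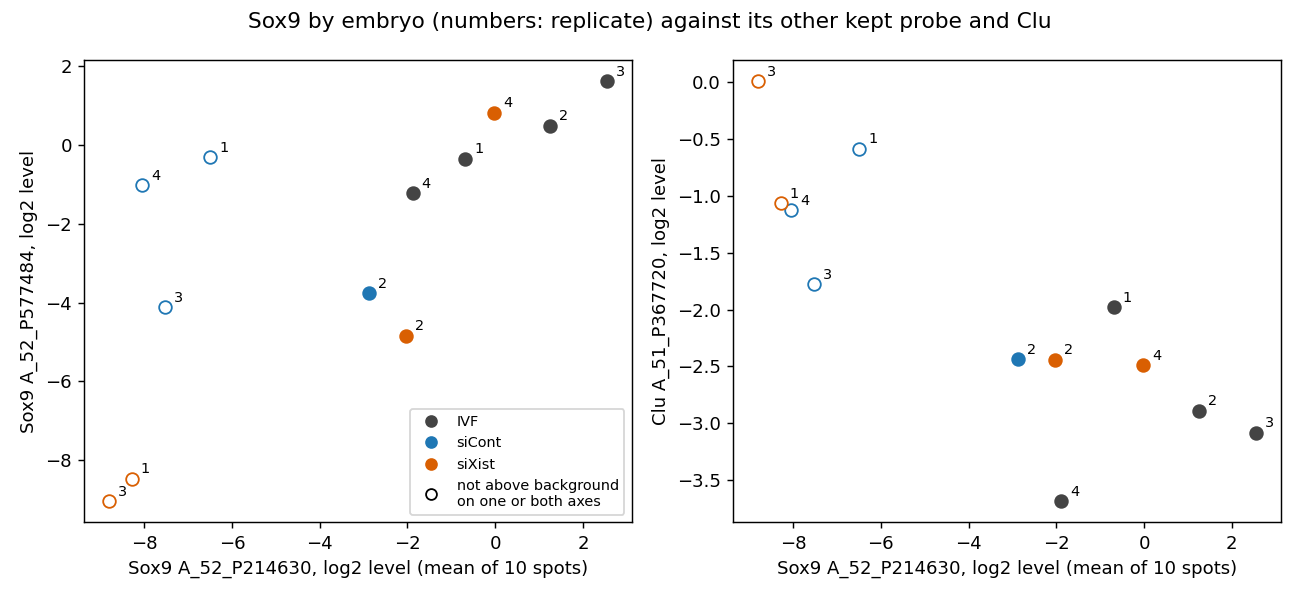
Sox9 in each embryo by its 10-spot probe (x axes, log2 level) against its second probe (left, log2 level) and against Clu (right, log2 level), with replicate numbers beside the points and open symbols where 1 or both values are not above background. On the left, siCont clones 1 and 4 stand off the line of the other embryos. On the right, the 5 clones with the 10-spot probe not well above background read -1.78 to 0.01 for Clu and the other embryos -3.68 to -1.98.

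Wt1 and Nr5a1, the factors of the early gonad, differed in whether they were read at all. The Wt1 probe, also spotted 10 times, was not above background in 11 embryos, at -8.89 to -7.48. In siXist clone 4 it read -5.56, with all 9 usable spots above background and an SD of 0.19 between them. The same clone was the one with the highest Sox9 among the clones. Nr5a1 read -5.28, -5.14, -5.48 and -4.88 in IVF embryos 1 to 4. The siCont clones read -4.95, -5.55, -4.74 and -4.75, and the siXist clones -5.52, -5.96, -5.17 and -5.44. These values overlap between classes and lie close to the lowest signal above background of their arrays. The difference of all clones from IVF was -0.06 ± 0.27 (95% interval -0.66 to 0.53, limma adjusted p = 0.942), and that of siXist from siCont clones was -0.53 ± 0.31 (adjusted p = 0.469).

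Among the hormones and signals, Amh, the hormone that removes the female ducts in male fetuses, was not well above background in any embryo (-8.80 to -7.01). Its dim readings averaged -7.44, -7.78 and -8.41 in IVF embryos, siCont clones and siXist clones. The 7627 probes never above background had median levels that averaged -8.00, -8.02 and -8.58, so both were lowest on the siXist slide. Fshr, the receptor for follicle stimulating hormone, was above background in IVF embryo 2 (-5.42), siCont clones 1 and 3 (-5.92 and -5.30) and siXist clones 1 and 4 (-6.25 and -6.34). Its other values were -7.50 to -5.91, next to the limit of detection, and the classes overlapped.

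Dhh, the hedgehog ligand of Sertoli cells, was read in every embryo at levels near the 75th percentile. It read 1.18, -0.06, -0.37 and 0.25 in IVF embryos 1 to 4. The siCont clones read -1.13, 1.01, -1.56 and 2.05, and the siXist clones 0.04, -1.45, 1.34 and 0.58. The clones spread more widely on both sides of the IVF values and the class means, 0.25, 0.09 and 0.13, lay close together. Clones differed from IVF by -0.14 ± 0.76 (95% interval -1.83 to 1.55, limma adjusted p = 0.957).

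Inhbb, the beta B subunit of activin and inhibin, was also read throughout. Its brighter probe, A_51_P325904, read 0.13, 0.55, -0.72 and -0.56 in IVF embryos 1 to 4 and 0.97, -0.88, 0.30 and 2.91 in siCont clones. In siXist clones 1 to 4 it read 3.76, 0.93, 1.46 and -2.36, the highest and the lowest values of all 12. The SD was 0.59 in IVF embryos, 1.58 in siCont and 2.52 in siXist clones. All clones differed from IVF by 1.03 ± 1.03 (limma adjusted p = 0.719) and siXist from siCont clones by 0.12 ± 1.19 (adjusted p = 0.972). The other probe, A_52_P152847, stayed between -5.19 and -3.83 in all embryos and did not follow the first (difference of all clones -0.05 ± 0.34, adjusted p = 0.966).

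Among the secreted and junction proteins, Clu encodes the chaperone clusterin, which is abundant in Sertoli cells but made by many cell types. Most clones read above the IVF embryos, without passing the adjusted threshold. It read -1.98, -2.89, -3.08 and -3.68 in IVF embryos 1 to 4. In siCont clones 1 to 4 it read -0.59, -2.44, -1.78 and -1.13, and in siXist clones 1 to 4 -1.07, -2.44, 0.01 and -2.49, all above background. Of the 8 clones, 5 lay above every IVF embryo and 3 between them. The difference of all clones was 1.42 ± 0.56 (SE), or 2.67-fold, with an exact permutation p of 0.0263 and a limma adjusted p of 0.325. It was 1.43 ± 0.64 in siCont clones (adjusted p = 0.386) and 1.41 ± 0.64 in siXist clones (adjusted p = 0.381, and 0.91 without siXist clone 3), and siXist clones differed from siCont clones by -0.02 (95% interval -1.44 to 1.41). The authors' deposited table, whose scaling puts the median of all probes at -0.65 in this comparison, gave 0.89. It gave 0.33 for siCont clones against IVF, where its median of all probes was -1.15, and 1.45 for siXist clones. Normexp with quantile normalisation gave 0.98 for all clones.

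Cldn11, the claudin of the blood-testis barrier, was, with Wt1, detected in clones and in no IVF embryo. It read -8.30, -7.37, -6.35 and -7.33 in IVF embryos 1 to 4, none above background. In siCont clones 1 to 4 it read -6.52, -6.39, -5.82 and -4.70, and only clone 4 was above background. In siXist clones 1 to 4 it read -5.69, -6.36, -2.33 and -6.38, all above background. The values of siXist clones 2 and 4 lay below the lowest signal marked above background on any IVF or siCont array, and siXist clone 3 stood farthest above its own limit. The part of the lower detection limit of the siXist slide in this count was not tested. By the less strict mark, positive and significant against background, Cldn11 was counted in IVF embryos 2, 3 and 4 and in every clone, so its detection depends on the mark used. Because no IVF array marked it well above background, the IVF side is a bound. This is the mean of the higher of each array's limit and the probe's own value. On that footing siXist clones were at least 1.75-fold higher (limma adjusted p = 0.341 for the fitted difference). Without siXist clone 3 their mean (-6.14) lay under the IVF bound (-6.00) and gave no fold. The bound is approximate, since a probe can go unmarked above the limit of its array. In siCont clone 4, Fshr read -5.91 unmarked, with a limit of -5.97. No fold is given for siCont clones, where 3 of 4 arrays did not mark it well above background either. Background readings included, the class means were -7.34 (IVF), -5.86 (siCont) and -5.19 (siXist). On these readings siCont clones against IVF gave a limma adjusted p of 0.525, and all clones 0.371 with an exact permutation p of 0.0323. Cldn11 entered the test only through the siXist clones, the class where it read highest, which favours a difference from IVF. Its p-values are therefore a description only. Without siXist clone 3 the fitted difference of siXist clones from IVF was 1.19 in place of 2.15. With dim values raised to a common floor of -5.60 the difference of all clones was 0.52 in place of 1.81, and with normexp and quantile normalisation 0.40.

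Ptgds, a prostaglandin D synthase that is secreted by Sertoli cells, was read in all embryos at a low level. It read -4.30, -4.25, -4.39 and -3.89 in IVF embryos 1 to 4. The siCont clones read -3.57, -4.54, -3.63 and -3.86, the siXist clones -4.60, -4.23, -3.70 and -4.77, and the classes overlapped. Clones differed from IVF embryos by 0.09 ± 0.30 (95% interval -0.58 to 0.77, limma adjusted p = 0.923), and siXist from siCont clones by -0.42 ± 0.35 (adjusted p = 0.60).

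No embryo was high for all of these genes. siXist clone 4 held the highest Sox9 of the clones and the only Wt1 signal, but the lowest Inhbb of all embryos on the brighter probe and the lowest Clu of the clones. siXist clone 3 held the highest Cldn11 and Clu of all embryos, with Sox9 at background. Over the 12 embryos, Clu and the 10-spot Sox9 probe ran opposite ways (Pearson r -0.83, Spearman rho -0.85), the r of largest size among the 36 pairs of tested probes. The r was -0.75 without the 2 embryos farthest from the median Sox9 value and -0.70 with class means taken out. With the second Sox9 probe, above background on 10 of 12 arrays, Clu gave r -0.56 (rho -0.53). The brighter Inhbb probe against the 10-spot Sox9 probe gave r -0.70 (rho -0.72), and -0.75 with class means taken out. With the second Sox9 probe it gave r -0.56 (rho -0.53). These 12 points share slides by class, and 5 of them have the 10-spot Sox9 probe not well above background, so they are a description only.

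A wider list of 26 Sertoli genes was drawn up with earlier results of these data known, as were all lists here. Of the 26, 15 were tested and 4 were never above background. In each IVF embryo 14 to 17 were detected, in each siCont clone 11 to 13 and in each siXist clone 15 to 17. Only Rhox5, an X-linked homeobox gene of Sertoli cells, passed the test, at 5.71 ± 0.98 higher in all clones than in IVF embryos (limma adjusted p = 0.0315) and 6.61 ± 1.13 in siXist clones (adjusted p = 0.0398). In siCont clones it was 4.82 ± 1.13 (adjusted p = 0.129). Rhox5 levels in IVF embryos split by sex, at 5.26 ± 0.24 (SD, n = 2) in females and -5.04 ± 3.93 in males. The difference between the sexes was 10.30 ± 1.60 (adjusted p = 0.227). The clones, all male, read 2.58 to 6.23 (siCont) and 5.68 to 7.23 (siXist). The median difference of the 15 genes between all clones and IVF was -0.20, against -0.12 for all probes.

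Of 13 genes of gonad determination, 8 were tested and 0 passed in any comparison. Sry, the switch gene that acts before Sox9, was not above background in any embryo. The gene with the smallest p for clones against IVF was Gadd45g, a stress and signalling adaptor needed for Sry expression (1.06 ± 0.83, limma adjusted p = 0.635). For siXist against siCont clones it was Gata4, a partner of WT1 and NR5A1 (-0.69 ± 0.33, adjusted p = 0.401).

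The receptors and targets of the Sertoli signals were unevenly present. Of 18, 12 were tested and 0 passed in any comparison. Between 8 and 10 were detected in each IVF embryo and 10 to 12 in each clone. Amhr2, the receptor of anti-Mullerian hormone, was read in all 12 embryos at 0.92 to 3.10, although Amh was not detected. Ptch1, the main hedgehog receptor, was above background in none. The median difference of the 12 tested genes was 0.64 for all clones against IVF, beside -0.12 for all probes.

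Close relatives of the 10 genes included some of the strongest signals. Nr5a2, which shares its DNA motif with Nr5a1, was read at 4.24 to 6.65 in all 12 embryos. Of 18 relatives, 10 were tested and 0 passed. The nearest was Cldn7, a claudin of the embryo's outer epithelium, at 6.66 to 6.87 in IVF embryos, 5.33 to 5.91 in siCont clones and 4.61 to 5.97 in siXist clones. The difference of all clones from IVF was -1.37 ± 0.29 (limma adjusted p = 0.0778).

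Markers of the other cells that could be carried over with an embryo or a donor cell were checked beside these values. Some genes stand in more than 1 list, 3 of the 14 for granulosa cells and 4 of the 26 further Sertoli genes. For cumulus and granulosa cells, which surround the oocyte, 3 to 5 of 14 markers were detected in each IVF embryo, 5 to 6 in each siCont clone and 5 to 9 in each siXist clone. Summed levels here are the log2 of the summed relative signal and take only the brightest kept probe of each tested marker. For the 6 tested granulosa markers they were 1.30 to 2.20 in IVF embryos, 2.03 to 3.17 in siCont and 1.83 to 2.88 in siXist clones. Most of this was Amhr2, which alone read 0.92 to 2.16, 1.94 to 3.10 and 1.72 to 2.82 in turn. Of the 14 granulosa markers, 6 were tested and 0 passed, and 3 were never above background. The nearest to the threshold was Ptx3, a matrix protein of the cumulus. It was above background in 1 of 4 IVF embryos, 4 of 4 siCont clones (-5.39 to -3.46) and 0 siXist clones. The difference was 3.02 ± 0.68 for siCont clones against IVF (limma adjusted p = 0.127) and -4.26 ± 0.73 for siXist against siCont clones (adjusted p = 0.139), background readings included. One siXist array gave no Ptx3 value and was left out. For peritubular myoid cells, which wrap the seminiferous tubule, 2 to 3 of 5 markers were detected in each IVF embryo, 3 to 4 in each siCont and 3 to 5 in each siXist clone. Their summed level was 0.21 to 1.32, -0.32 to 1.19 and 1.26 to 1.93 in turn. Cnn1, a smooth muscle calponin, was above background in 0 of 4 IVF embryos, 4 of 4 siCont and 2 of 4 siXist clones (all clones 3.78 ± 1.54, limma adjusted p = 0.345). Ptx3 and Cnn1 entered the test only through the siCont clones, the class where each read highest. Their p-values are therefore a description only. Leydig cells, the androgen makers of the testis, had 1 to 3 of 6 markers detected per embryo. The summed level of the 2 tested ones was -0.92 to 0.64 in IVF embryos, -1.86 to 0.20 in siCont and -1.39 to -0.34 in siXist clones. Male germ cell markers were detected at 4 to 6 of 6 in IVF embryos and 5 to 6 in clones, and their summed level was -1.0 to 3.34, 0.87 to 2.87 and -0.06 to 2.51. Blood markers were detected at 1 of 3 in every embryo. Only Hba-a1 was tested, and its level was -4.74 to -4.42, -3.83 to -1.75 and -4.14 to -0.48 in turn. None of these lists had a gene that passed the test in any comparison, and their part in the Clu, Cldn11 and Sox9 values was not tested.

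**Figure D4:**
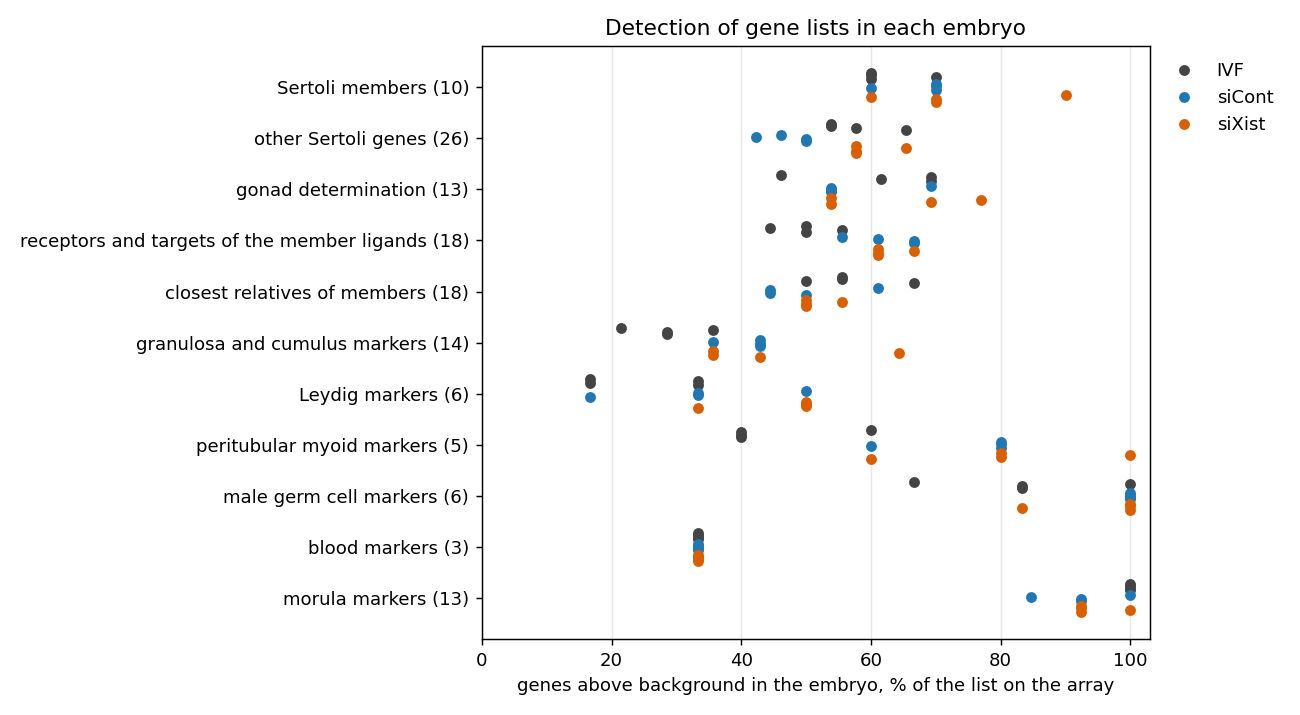
Share of each gene list that was above background in each embryo, in % of the list's genes on the array (number in brackets), with 1 point per embryo. Of the 10 Sertoli genes, 6 to 9 were detected in each embryo, of the 13 morula markers 11 to 13, and of the 3 blood markers 1 throughout.

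The genes that followed each Sertoli gene most closely over the 12 arrays were mostly of other kinds. For the second Sox9 probe they were Pigyl (Pearson r 0.93), Pikfyve (0.90) and Adat2 (0.88), and for Clu they were 5730416F02Rik (0.90), Tnfrsf9 (0.88) and Olfr430 (0.88). For Dhh they were Dock11 (0.93), 1700125H20Rik (0.88) and Zfp688 (0.88), and for Inhbb Dnajc25 (0.89), Tnfrsf1b (0.86) and Proc (0.85). For Nr5a1 they were Znhit6 (0.89), Mybphl (0.88) and Fbxo22 (0.87), and for Ptgds Odf4 (0.88), Ecscr (0.88) and Rbbp9 (0.85). Each was picked as the highest of at least 18465 probes and with shared slides, so the values describe these 12 arrays only.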

How the data were processed

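Each of 12 arrays held RNA of 1 morula. Per the file headers, the authors' scanner output gives each spot's intensity from Agilent Feature Extraction 10.5.1.1, with a grid built on mm9, and the processed signal is already background-subtracted. The authors' deposited value table is in log2 units, centred by probe, with r of 0.984 to 0.994 against probe-centred scanner values. What sets its constant per array is unknown, and its column medians ran from -1.62 to 0.75. Per the labels' protocols, TRIzol-extracted RNA was amplified before Cy3 labelling.

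Here the value was log2 processed signal minus the 75th percentile of the array, over non-control probes, with outlier spots left out and spots of a probe averaged. There were 0 saturated spots. Probes marked well above background on 3 or more of the 4 arrays in any class were kept (24839 of 41174 probes, of which 8 lacked a value in some group). RefSeq accessions (GRCm38.p6) named 26888 probes (65.3%). limma 3.58.1 under R 4.3.3 fitted all arrays with means for male IVF, female IVF, siCont and siXist (8 residual degrees of freedom), two-sided, with Benjamini-Hochberg adjustment over all kept probes. IVF sexes were weighted equally. The fit was tested on simulated data. Exact permutation tests enumerated all regroupings of embryos in Python 3.11.15, and figures were drawn with matplotlib 3.10.9. The number of arrays limits the precision.

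Replicate numbers in the titles did not pair the embryos (correlation of deviations -0.14 to 0.06). The members and gene lists were chosen with earlier results of these data known. Text names all 10 members, per list and comparison the called gene with the largest difference each way (otherwise the gene with the smallest p), and the 3 genes most correlated with a member detected on at least 10 arrays. Ptch1, Nr5a2 and Sry fall outside that rule and were named after their values were seen. A gene that the rule named among the receptors and targets is not reported here, and counts and medians include it. The same holds for the correlations between members, the promoter features and the medians of undetected probes. Alternatives were normexp with quantile normalisation, quantile normalisation, the authors' table, other filters, a floor of -5.60, 1 probe per gene, male IVF embryos only, no sex term, robust eBayes with a trend, a replicate block and leaving out each array. A block for slide could not be run, since each class lay on 1 slide.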

Additional observations from a re-analysis of the deposited data

Results flagged for a closer look

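A gap test on the highest and lowest of 4 embryos (Dixon's test) was applied to each of the 13 probes in each class, 39 groups in all, and 3 embryos stood apart. Chance marks about 1 in 20 groups. Wt1 read -5.56 in siXist clone 4, against -8.89 to -8.50 in the other siXist clones, and was above background only there. Wt1 also read -7.59 in siCont clone 3, against -8.23 to -8.18 in the other siCont clones, but none of these is above background. Cldn11 read -2.33 in siXist clone 3, against -6.38 to -5.69 in the other siXist clones.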

How the results depend on the processing

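For the Sertoli genes, 26 differences were recomputed under 23 alternatives (579 values). All stayed on the same side of the adjusted threshold, with a smallest adjusted p of 0.0528 (second Sox9 probe, siXist clones against IVF, without siXist clone 4, difference -7.57), and 35 changed sign. The signs of Clu and Cldn11 (clones against IVF, higher) and of both Sox9 probes (lower) were the same under every alternative that kept the probe. The stricter filter, 6 or more arrays above background, removed Cldn11, and 1 probe per gene left out the 10-spot Sox9 probe. None of the 35 was of a difference that had passed the threshold. With the authors' table, whose median over all probes was 0.97 for siXist against siCont clones, that comparison gave 1.12 for Clu, 0.61 for Nr5a1 and 0.71 for Ptgds, and clones against IVF gave -0.44 for Ptgds. For clones against IVF, the dim Inhbb probe gave 0.0048 with normexp and quantile normalisation, 0.082 with quantile normalisation alone and 0.090 with male IVF embryos only, and Nr5a1 gave 0.036, 0.13 and 0.12. Leaving out 1 embryo, siXist against siCont clones ranged from -0.13 to 2.79 for the 10-spot Sox9 probe, from -0.52 to 0.32 for Clu, from -0.51 to 0.69 for Dhh, from -0.28 to 1.07 for Cldn11 and from -0.82 to 1.22 for the brighter Inhbb probe. Clones against IVF ranged from -0.53 to 0.25 for Dhh, from -0.29 to 0.19 for the dim Inhbb probe, from -0.13 to 0.028 for Nr5a1 and from -0.013 to 0.20 for Ptgds.

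Counts of all probes that passed moved more. Clones against IVF gave 185, and 108 with the authors' table, 112 with the stricter filter and 32 with male IVF embryos only. siCont clones against IVF gave 96, 37 with the stricter filter and 23 with male IVF embryos only. siXist clones against IVF gave 126, 54 with the authors' table, 57 with the stricter filter and 32 with male IVF embryos only. siXist against siCont clones gave 5, and 0 with limma after normexp and quantile normalisation (2601 at an unadjusted p under 0.05), 3 with quantile normalisation or the stricter filter, 27 with the authors' table, and 2 with no filter, 1 probe per gene or robust eBayes with a trend. Female against male IVF embryos gave 4, 26 with no filter and 7 with a floor. Of the calls between clones and IVF, 47.6% were higher in clones, 57.1% after quantile normalisation, 70.5% with the stricter filter and 25.9% in the authors' table; for siCont clones these were 50%, 46.7%, 64.9% and 9.92%, with 39.4% after normexp. For siXist clones against IVF it was 50.8%, 73.7% with the stricter filter and 40.7% in the authors' table, and for siXist against siCont clones 60%, 100% after quantile normalisation and 96.3% in the authors' table. The causes were not tested.

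Leaving out 1 embryo gave 64 to 204 calls for clones against IVF (64 without IVF 1, 73 without IVF 3, 123 without IVF 4, 119 without siCont 2). It gave 33 to 123 for siCont clones against IVF (44 without IVF 1, 33 without IVF 3, 55, 48 and 59 without siCont 2, 3 and 4), and 54 to 150 for siXist clones against IVF (54 without IVF 1, 60 without IVF 3, 69 without siXist 3). For siXist against siCont clones it gave 6 to 70, the highest without siXist 1, and for female against male embryos 4 to 9, the highest without IVF 2. Where 1 embryo of a sex was left, it was assumed to vary like the other groups.

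With a replicate block, which the titles' numbers do not support as a pairing, the counts were 58 (clones against IVF), 13 (siCont against IVF), 22 (siXist against IVF), 0 (siXist against siCont, 2575 at an unadjusted p under 0.05) and 2 (female against male), and no Sertoli probe passed. Slide as a block could not be run. Signal near background limits Cldn11, Fshr, Wt1 and Amh most.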
